A study of Arabidopsis thaliana with 35 samples.

Results

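Near the centromere of chromosome 2, the nuclear genome of Arabidopsis (Col-0) carries a large insertion of mitochondrial DNA. The genes described here are the 147 of the 37898 genes in both expression tables whose AGI identifier runs from AT2G07665 through AT2G07840. This rule uses no measured value, but it was set with earlier results of these data known. The 147 genes were followed in 35 libraries of whole seedlings. At ZT1, WT (Col-0) and *cca1lhy* (*cca1-1/lhy-20*) were compared, and at ZT6, WT and *prr7prr9* (*prr7-3/prr9-1*). Both double mutants are in the Col-0 background and carry mutations in clock genes of the morning or the day. Seedlings spent 1 h in the cold (10 °C) or heat (37 °C) or stayed at 22 °C, which gave 12 groups. All plants had grown on MS plates with sucrose at 22 °C under light and dark periods of equal length for 12 days. The ZT1 groups held 4 libraries, except WT at 10 °C with 3, and the ZT6 groups held 2. The design asks whether time of day and the clock shape the response to heat and moderate cold.

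Plant mitochondria keep a small genome of their own that encodes core subunits of respiratory complexes I, III and IV and of the ATP synthase, parts of the cytochrome c maturation machinery, some ribosomal proteins, tRNAs and a maturase for intron splicing. The other subunits are encoded in the nucleus and imported. DNA moves from the organelle to the nucleus during evolution, and a recent insertion can hold sequences that are the same, base for base, as the genes still working in the mitochondrion. RNA from either copy then gives the same reads, apart from bases that mitochondria change from C to U by RNA editing. In plant mitochondria a poly(A) tail marks an RNA for decay, whereas on a nuclear mRNA it supports stability, and these libraries were made from RNA purified on oligo-dT beads.

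Of the 147 genes, 69 are annotated in TAIR10.1 as protein coding, 25 as transcribed pseudogenes, 30 as other pseudogenes, 2 as lncRNAs and 21 as tRNAs. The mitochondrial genome of the same assembly covered at least 90% of 103 of them at a best identity of 97.5 to 100%. For 53 genes this identity was 100%. These 103 matched genes lie between positions 3239693 and 3507323 of chromosome 2, a span of 267.6 kb. When the exons of the matched genes were read in windows of 75 bases, the length of a read, 95.6% of 98120 windows occurred exactly in the mitochondrial genome, and for 59 genes every window did. A further 24 genes were shorter than the 100 bases required of a match. These are the 21 tRNAs and 3 other short genes, all inside the span except AT2G07742, which starts just before it. The remaining 20 genes had no mitochondrial match. They are 12 pseudogenes, 6 protein coding genes and 2 lncRNAs, of which 1 lies before the span and 19 after it. The matches show that, for most of these genes, an expression value cannot be assigned to the nuclear or to the mitochondrial copy. The tables hold 0 genes of the organelle genomes themselves. Whether the mitochondrial genome was in the mapping index, how reads with several positions were treated and whether strand was used are not given in the sources used here.

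The following 75-base windows are shown for the genes on which the results turn most, because each is as long as 1 read. They come from RefSeq sequence of TAIR10.1, run 5′ to 3′ on the strand of the gene, and lie in coding sequence of the mitochondrial gene. The windows of AT2G07698 (*atp1*), AT2G07671 (*atp9*) and AT2G07675 (*rps12*) are identical in the nuclear and the mitochondrial genome. They lie at chr2:3362522-3362596 (+), chr2:3252006-3252080 (−) and chr2:3270410-3270484 (+).
AT2G07698: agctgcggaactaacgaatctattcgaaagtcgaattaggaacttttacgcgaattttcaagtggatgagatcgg
AT2G07671: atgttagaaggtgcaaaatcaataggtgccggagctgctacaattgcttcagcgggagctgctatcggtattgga
AT2G07675: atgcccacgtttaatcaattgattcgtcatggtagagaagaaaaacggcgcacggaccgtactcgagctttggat
A window of AT2G07783 (*ccmFN1*) at chr2:3297906-3297980 (+) and its mitochondrial counterpart at positions 316029 to 316103 (+) differ at 1 base, C38T (the mitochondrial base first, counted from 1 at the 5′ end of the window), given in a capital letter.
AT2G07783, chromosome 2: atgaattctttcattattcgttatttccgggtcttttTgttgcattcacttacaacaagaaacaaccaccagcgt
ccmFN1, mitochondrial genome: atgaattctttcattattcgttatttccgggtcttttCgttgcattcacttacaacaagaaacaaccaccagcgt
A read across such a position might tell the copies apart, although an edited mitochondrial RNA would also read T where its gene has C, and the tables hold sums over whole genes.

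Library totals, recovered from the steps of the deposited values, were 1.09 to 10.6 M reads (M, mega) in the ZT1 table and 13.0 to 28.1 M in the ZT6 table. The ZT1 and ZT6 tables were normalized separately, and no level is compared between them. Among the mutated genes, *CCA1* ranged from 8.26 to 9.64 log2 CPM in WT and from 2.03 to 5.29 in *cca1lhy*, and *PRR7* from 6.52 to 8.54 in WT and from 1.73 to 3.70 in *prr7prr9*, while the ranges of *LHY* and *PRR9* overlapped with WT. At ZT6, 4 libraries (WT at 37 °C replicate 2 and, of *prr7prr9*, 22 °C replicate 3, 37 °C replicate 3 and 10 °C replicate 2) had 27329 to 29244 genes above the lowest value against 24403 to 26018 in the others. The summed CPM of 5 leaf markers was lower at 37 °C, at 25462 to 36410 against 65594 to 68005 at 22 °C in WT at ZT1 and 22912 to 25219 against 39379 to 53198 at ZT6. The summed CPM of 6 root markers was 40.8 to 65.4 against 99.98 to 149 at ZT1 and 30.6 to 40.4 against 47.9 to 51.7 at ZT6. In whole seedlings, fewer cells of a type and less RNA per cell cannot be told apart, and the part of such changes in the results below was not tested.

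Together, the 147 genes took a far larger share of the reads after heat. In WT at ZT1 they held 59.6 to 72.5 reads per M reads (RPM) at 22 °C, 771 to 1007 at 37 °C and 45.8 to 85.9 at 10 °C over the 4, 4 and 3 libraries. In *cca1lhy* the shares were 60.7 to 77.8, 533 to 671 and 40.6 to 63.1 RPM over 4 libraries each. In both genotypes every 37 °C library lay far above every 22 °C library, with a fold of the mean shares of 13.3 in WT and 9.43 in *cca1lhy*. At ZT6 the WT shares were 272 and 304 RPM at 22 °C, 980 and 1124 at 37 °C and 217 and 240 at 10 °C. In *prr7prr9* they were 209 and 374, then 1146 and 1177, then 302 and 342. The fold of the mean shares for 37 °C was 3.66 in WT and 3.98 in *prr7prr9*, again without overlap. When the 100 genes with the most reads were left out of the totals, the folds were 12.2 and 9.09 at ZT1 and 3.58 in WT at ZT6. The summed share of the genes without a mitochondrial match did not rise. These genes held 8.26 to 21.1 RPM at 22 °C and 5.40 to 9.96 at 37 °C in WT at ZT1, and 13.8 to 19.8 and 11.8 to 11.8 at ZT6. Most of these reads came from AT2G07690 and AT2G07680, with 87 and 47 reads in WT at 22 °C at ZT1. Of the 20 unmatched genes, 11 were at the lowest value in every ZT1 library. The sum therefore says little about the unmatched genes other than AT2G07690 and AT2G07680. A share says how much of the sequenced poly(A) RNA a gene set made up, not how much RNA a cell held.

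**Figure D1:**
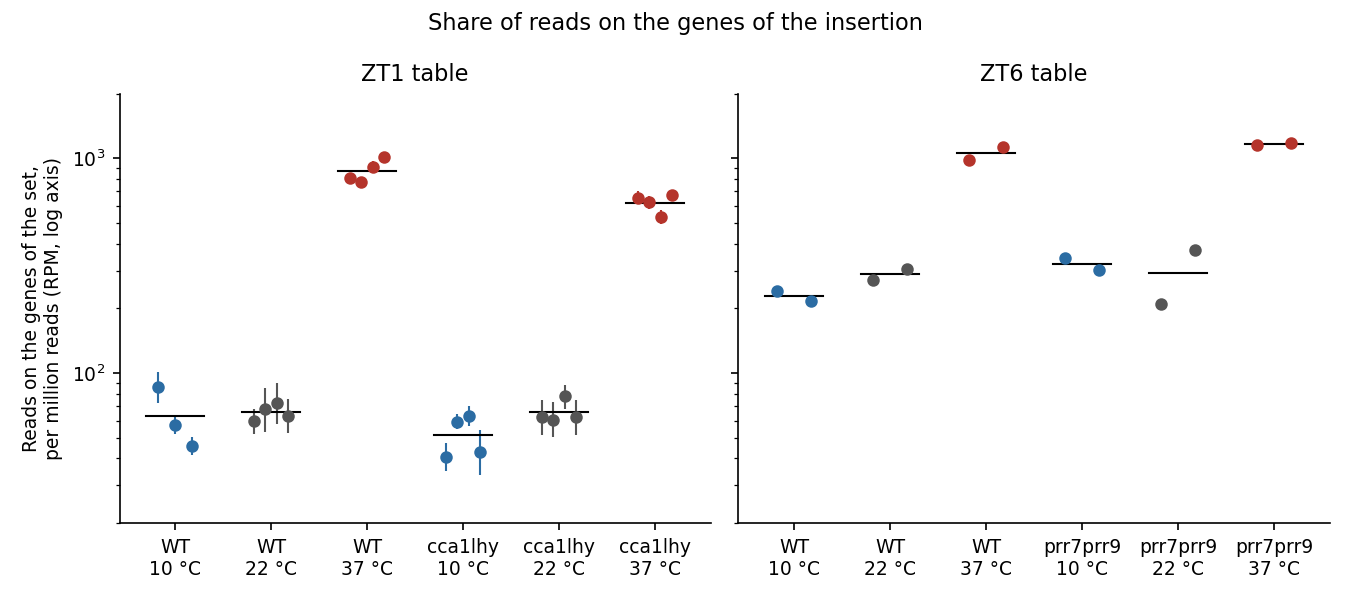
Share of all reads (RPM, log axis) that fell on the 147 genes, for each of the 35 libraries by group, with ZT1 and ZT6 in separate panels. Points are libraries (blue 10 °C, grey 22 °C, red 37 °C), bars are exact binomial 95% intervals (counting error only) and horizontal lines are group means. All 37 °C libraries lie above all 22 °C and 10 °C libraries of their time, at 533 to 1007 RPM at ZT1 and 980 to 1177 at ZT6.

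Gene by gene, heat raised the values of many of these genes at both times and none was called lower. Tests used limma on the log2 CPM of all genes with values above the lowest in at least 3 libraries (ZT1) or 2 (ZT6), and a gene was called at an adjusted p under 0.05 and an absolute log2 fold change (LFC) over 1. Of the 147 genes, 117 passed the filter on low values at ZT1 and 135 at ZT6, and 17 and 4 genes were at the lowest value in every library. At 37 °C against 22 °C, WT at ZT1 had 73 genes higher and 0 lower of 117, where 13.3% of all genes tested were called in either direction and 6.97% were higher. In *cca1lhy* 55 were higher and 0 lower (12.7% of all genes called, 6.44% higher). In WT at ZT6, 94 were higher and 0 lower of 135 (14.4% called, 7.25% higher), and in *prr7prr9* 93 were higher and 0 lower (14.1% called, 6.66% higher). In WT at ZT1 104 of the 117 had an unadjusted p under 0.05 and the LFC was positive for 113. Among the matched genes, 72 were higher in WT at ZT1 and 93 of 103 at ZT6. Their median LFC was 1.58 at ZT1 and 2.80 at ZT6, against −0.06 and 0.00 over all genes tested. In the mutants, the medians were 1.17 (*cca1lhy*) and 2.76 (*prr7prr9*). The deposited values carry an offset that shrinks the LFC of genes with few reads. On reads scaled to library totals, the median 37 °C to 22 °C ratio over matched genes with enough reads was 12.7 in WT and 9.02 in *cca1lhy* at ZT1 (23 and 26 genes), and 9.11 in WT and 9.20 in *prr7prr9* at ZT6 (81 and 94 genes). With the genes included that allow only a lower bound, the medians were 6.23 and 6.39 at ZT1 (36 and 21 such genes) and 9.21 and 9.25 at ZT6. At ZT1 44 of the 103 matched genes had no read at all in the 4 WT libraries at 22 °C. These genes were at the lowest value there, so in WT they could not be called lower or have a negative LFC. The filter counted libraries of any group, so a gene such as AT2G07768 passed at ZT1 through its 37 °C libraries alone. For such genes the absence of lower calls was fixed in advance.

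Among the roles, the ATP synthase had the largest median LFC of the deposited values in WT at both times. The offset in these values shrinks the LFC of genes with few reads, and the roles were not ranked on reads scaled to library totals. A stronger response of the ATP synthase genes is therefore not shown. All 6 ATP synthase genes were higher in all 4 heat comparisons, with medians in WT of 2.92 at ZT1 and 3.20 at ZT6. The largest change at ZT1 was that of AT2G07698, which matches *atp1*, the alpha subunit of the catalytic F1 part (chr2:3361463-3364127, +, 2 exons, of whose windows 96.7% occur in the mitochondrial genome). Its level in WT at ZT1 was 2.53, 2.46, 2.38 and 2.89 log2 CPM at 22 °C, 7.26, 6.86, 7.87 and 7.77 at 37 °C, and 3.38, 2.97 and 2.64 at 10 °C. In *cca1lhy* it was 2.77, 2.77, 2.97 and 2.46 at 22 °C and 7.47, 7.38, 7.16 and 7.25 at 37 °C. The heat groups were thus separated from the others by several log2 units and overlapped each other between the genotypes. The LFC was 4.88 ± 0.20 (SE, limma adjusted p = 1.25e-15) in WT and 4.57 ± 0.20 (adjusted p = 5.18e-15) in *cca1lhy*. The WT libraries had 14, 3, 3 and 10 reads on AT2G07698 at 22 °C and 235, 207, 312 and 305 at 37 °C, a ratio of 49.5 after scaling to library totals. At ZT6 its level was 3.57 and 3.13 log2 CPM in WT at 22 °C, 6.51 and 6.94 at 37 °C, and 4.27 and 3.26 at 10 °C. In *prr7prr9* it was 2.96 and 4.06, then 6.84 and 6.85, then 4.44 and 3.91. The LFC was 3.38 ± 0.41 (adjusted p = 0.000443) in WT and 3.34 ± 0.41 (adjusted p = 0.000492) in *prr7prr9*. AT2G07698 alone took 21.6% of the 4901 reads on the 147 genes in WT at 37 °C at ZT1, and 10.6% of 27536 at ZT6.

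AT2G07671 matches *atp9*, the c subunit of the ring that turns in the membrane (chr2:3251566-3252341, −, a single exon of 776 bases). In WT at ZT1 its level was 2.41, 1.84, 2.13 and 1.53 log2 CPM at 22 °C and 5.69, 5.35, 5.56 and 5.49 at 37 °C. At ZT6 it was 2.95 and 2.81 in WT at 22 °C and 6.17 and 6.24 at 37 °C. The heat libraries formed a narrow band above the controls at both times, with LFCs of 3.55 ± 0.21 and 3.32 ± 0.34 (limma adjusted p = 1.27e-12 and 0.00018). The LFC was 3.35 in *cca1lhy* and 2.97 in *prr7prr9*. AT2G07741 matches *atp6*, the a subunit through which protons pass (chr2:3502319-3503476, +, 1158 bases). At ZT1 in WT it stood at 1.23, 1.23, 1.23 and 1.53 log2 CPM at 22 °C, where 1.23 is the lowest value of the table and stands for no reads, and at 3.70, 3.89, 3.76 and 3.81 at 37 °C. In *cca1lhy* the heat levels were 3.08, 2.94, 2.62 and 3.20, all below those of WT. The LFC of AT2G07741 was 2.49 ± 0.15 in WT (adjusted p = 1.35e-12) and 1.63 ± 0.15 in *cca1lhy* (adjusted p = 3.97e-09), and at ZT6 3.26 ± 0.42 in WT (adjusted p = 0.000651) and 2.98 ± 0.42 in *prr7prr9* (adjusted p = 0.00113). The other genes of the group, AT2G07707 (*atp8*), AT2G07777 (a longer gene that holds *atp9*) and AT2G07699 (a transcribed pseudogene of *atp6*), had LFCs of 2.77, 3.08 and 2.37 in WT at ZT1.

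**Figure D2:**
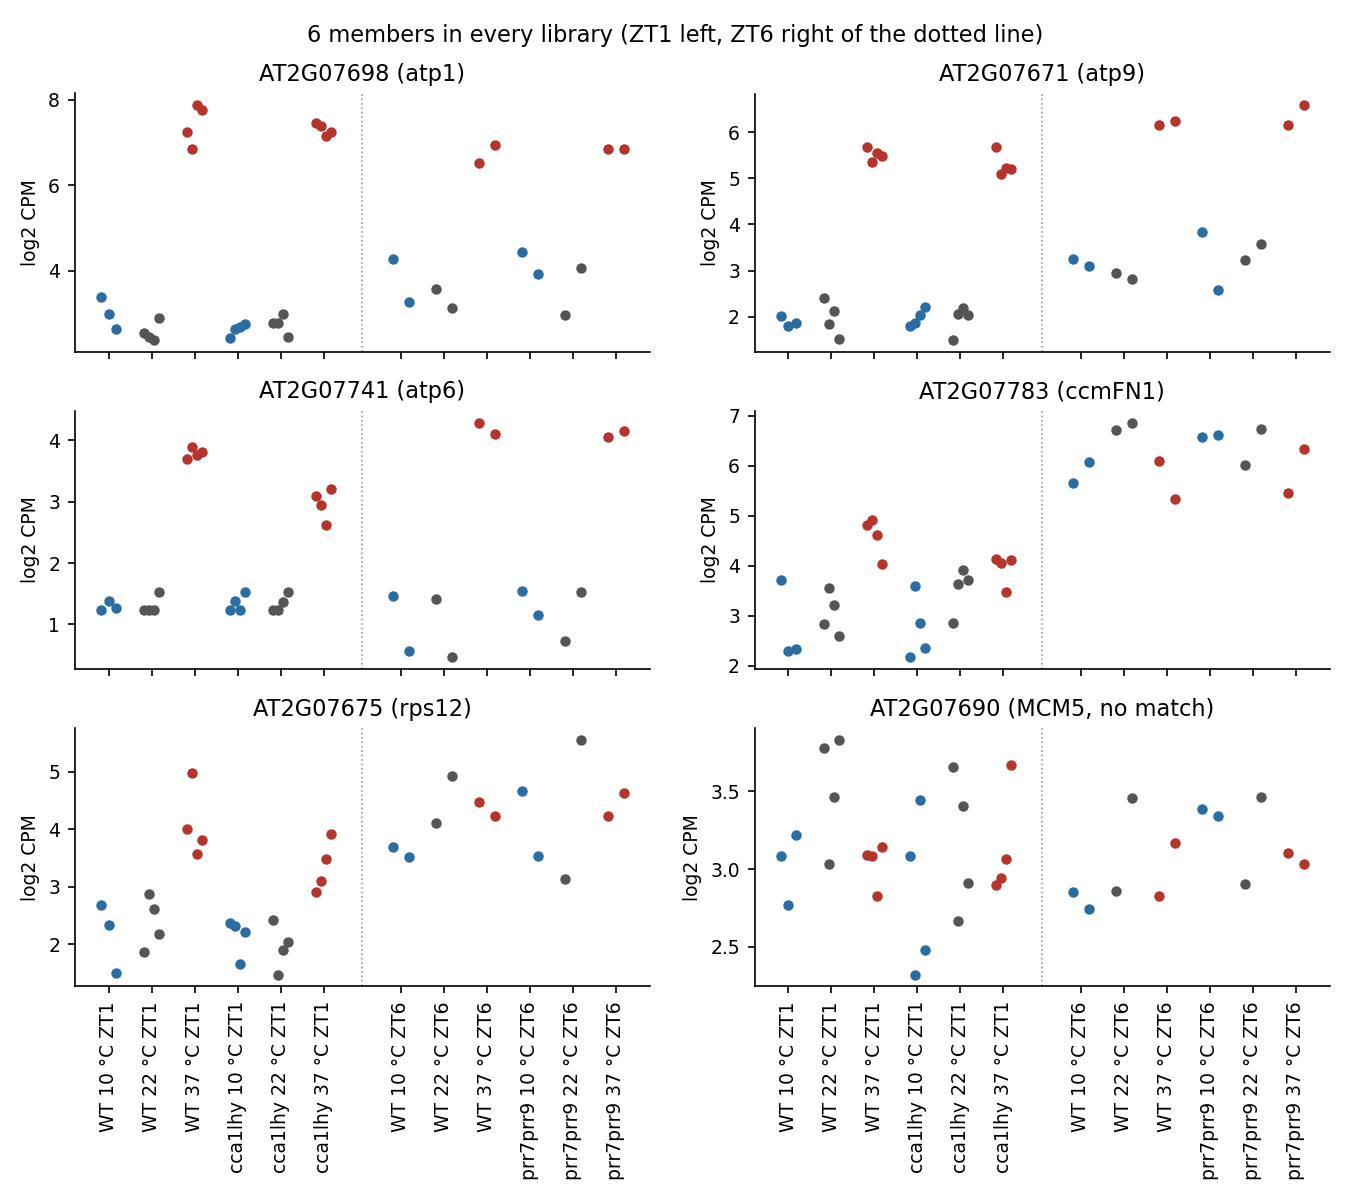
Level (log2 CPM) of 6 genes in every library, by group, with ZT1 left and ZT6 right of a dotted line. Levels are not comparable across that line because the tables were normalized separately. Points are libraries (blue 10 °C, grey 22 °C, red 37 °C). AT2G07698 (atp1), AT2G07671 (atp9) and AT2G07741 (atp6) are higher at 37 °C at both times, with AT2G07698 reaching 7.87 at ZT1 and 6.94 at ZT6 in WT. AT2G07783 (ccmFN1) reached 4.91 at 37 °C in WT at ZT1, above its 22 °C libraries, but at ZT6 it lay at 6.09 and 5.34, below them.

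Of the 11 genes with parts of NADH dehydrogenase (complex I, where electrons from NADH enter the respiratory chain), 10 were higher in WT at ZT1 and all 11 at ZT6, with median LFCs of 1.83 and 2.51. AT2G07689, AT2G07733, AT2G07808 and AT2G07811 all match *nad2*, and AT2G07785 and AT2G07786 match *nad1*. The 11 genes are thus not 11 separate mitochondrial genes. AT2G07711 matches *nad5*, a proton-pumping subunit. It was at the lowest value of 1.23 log2 CPM in all 4 WT libraries at 22 °C and at 4.12, 3.75, 4.08 and 3.89 at 37 °C at ZT1, and at ZT6 rose from 1.28 and 1.13 to 4.56 and 4.47 in WT and from 0.51 and 1.51 to 4.79 and 4.36 in *prr7prr9*. AT2G07731 (*nad6*, another membrane subunit) had LFCs of 2.55 ± 0.18 at ZT1 and 3.53 ± 0.60 at ZT6 in WT. The gene that was not called at ZT1, AT2G07689 (*nad2*, also a membrane subunit), had an LFC of 0.72 ± 0.26 there (limma adjusted p = 0.0327), with 1 of the 4 heat libraries at the lowest value, and of 2.14 ± 0.35 at ZT6 (adjusted p = 0.00261). In *cca1lhy* 7 of the 11 were higher and in *prr7prr9* all 11.

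For complex III, which passes electrons to cytochrome c, 3 genes hold parts of *cob*, the gene of cytochrome b. AT2G07718, the most abundant, rose in WT at ZT1 from 2.35, 3.77, 3.57 and 2.34 log2 CPM to 5.49, 5.56, 5.05 and 5.38 with an LFC of 2.37 ± 0.28 (limma adjusted p = 3.58e-07). Its ZT6 values of 3.46 and 4.11 at 22 °C and 5.45 and 5.42 at 37 °C gave 1.65 ± 0.25 (adjusted p = 0.00165). AT2G07773 was higher at ZT1 (LFC 1.83 ± 0.19), and at ZT6 its LFC of 1.01 ± 0.57 was within the error (adjusted p = 0.264). For complex IV, which reduces oxygen, AT2G07695 (*cox2*) rose from 1.50, 1.84, 1.23 and 1.23 to 3.44, 4.07, 4.01 and 4.09 log2 CPM in WT at ZT1 and from 0.81 and 0.91 to 3.39 and 4.07 at ZT6. AT2G07687 (*cox3*) had LFCs of 1.81 ± 0.18 and 2.45 ± 0.61, so that both genes of complex IV were called at both times and in both mutants.

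**Figure D3:**
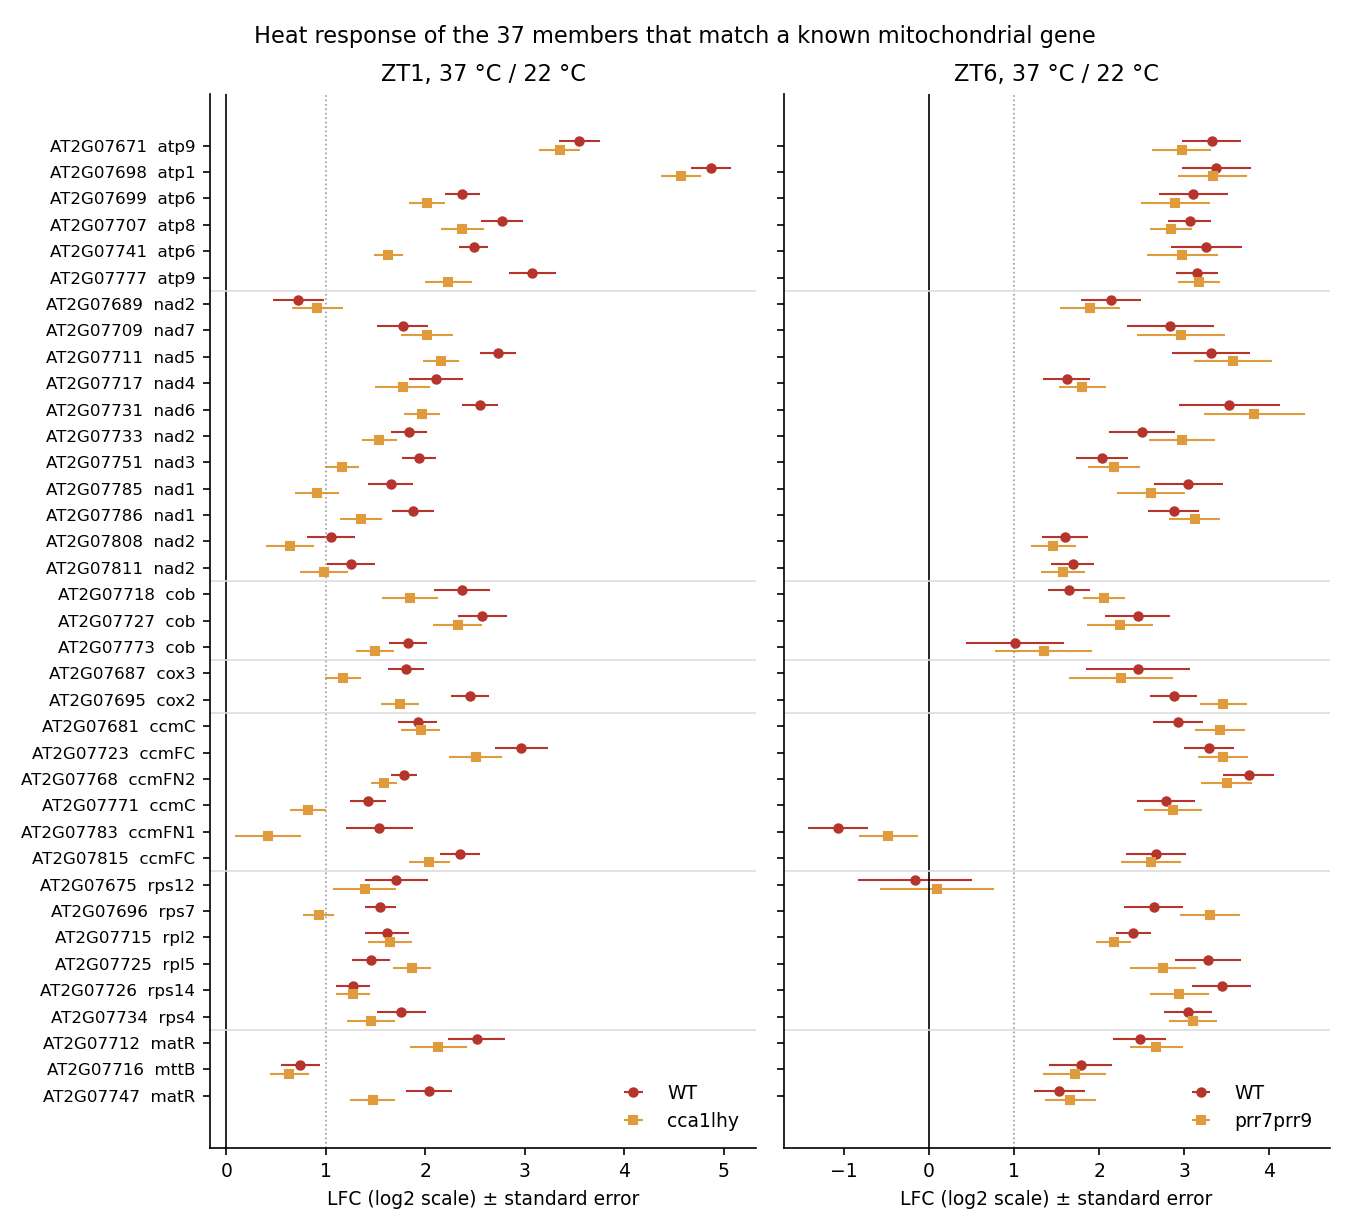
LFC at 37 °C against 22 °C (log2 scale, bars are SE from limma) of the 37 genes with a known mitochondrial counterpart, grouped by role, in WT and cca1lhy at ZT1 and in WT and prr7prr9 at ZT6. The dotted line is an LFC of 1. At ZT6 in WT, AT2G07783 (ccmFN1, −1.07) and AT2G07675 (rps12, −0.16) lie below 0, and the other genes lie above 1.

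Cytochrome c maturation genes, whose products attach haem to cytochromes, included the clearest exception. All 6 were higher in WT at ZT1 and 5 of 6 at ZT6. AT2G07681 and AT2G07771 both match *ccmC*, and AT2G07723 and AT2G07815 both match *ccmFC*. AT2G07723 (*ccmFC*) had LFCs of 2.96 ± 0.27 and 3.29 ± 0.29 and AT2G07768 (*ccmFN2*) of 1.79 ± 0.13 and 3.76 ± 0.30. AT2G07783 (*ccmFN1*), a transcribed pseudogene at chr2:3297892-3299395 (+, 1504 bases), differs from these genes in its level. In WT at 22 °C at ZT6 it had 70.9 and 78.3 reads per kb of exon and M of library reads, where AT2G07698 had 4.97 and 3.82 and AT2G07671 10.3 and 9.65. At ZT1 the values of AT2G07783 were 3.52, 6.10, 4.64 and 2.40, and these are not compared with ZT6. At ZT6 it took 39.0% of the 10166 reads that fell on the 147 genes in WT at 22 °C. Its level at ZT6 was 6.71 and 6.86 log2 CPM at 22 °C, 6.09 and 5.34 at 37 °C and 5.65 and 6.08 at 10 °C in WT, and 6.01 and 6.74, 5.45 and 6.33, and 6.56 and 6.61 in *prr7prr9*. Both WT heat libraries thus lay below both controls, and the *prr7prr9* groups overlapped. The LFC at 37 °C was −1.07 ± 0.35 (limma adjusted p = 0.0567) in WT and −0.48 ± 0.35 (adjusted p = 0.39) in *prr7prr9*, neither past the threshold. At ZT1 AT2G07783 rose in WT from 2.84, 3.55, 3.22 and 2.59 to 4.82, 4.91, 4.61 and 4.03 log2 CPM (LFC 1.54 ± 0.33, adjusted p = 0.000901), while in *cca1lhy* 2.86, 3.63, 3.92 and 3.71 stood against 4.13, 4.06, 3.48 and 4.12 (LFC 0.42 ± 0.33, adjusted p = 0.379).

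Ribosomal protein genes of the mitochondrial type showed a like exception. All 6 were higher in WT at ZT1 and 5 of 6 at ZT6, with *rps14* (AT2G07726) at an LFC of 1.27 ± 0.17 at ZT1 and 3.44 ± 0.35 at ZT6. AT2G07675 (*rps12*, a protein of the decoding centre; chr2:3270410-3270787, +, 378 bases, identical to the mitochondrial gene in every window) was the second most abundant of the 147 genes at ZT6 by median level. In WT at ZT1 it rose from 1.86, 2.87, 2.61 and 2.18 to 4.00, 4.97, 3.57 and 3.81 log2 CPM (LFC 1.71 ± 0.32, limma adjusted p = 0.000176). At ZT6 it was 4.10 and 4.93 at 22 °C and 4.48 and 4.23 at 37 °C in WT, and 3.13 and 5.55 against 4.23 and 4.63 in *prr7prr9*, where the heat libraries lay within the range of the controls (LFC −0.16 ± 0.67 and 0.09 ± 0.67, adjusted p = 0.939 and 0.961). Both replicates at 22 °C differed widely for this gene, so the error covers a change of more than 1 log2 unit either way. Of the maturase and transport genes, AT2G07712 and AT2G07747, which match *matR*, the intron-encoded maturase, were higher in all 4 heat comparisons (LFC 2.52 and 2.04 in WT at ZT1), and AT2G07716, which matches *mttB*, part of a protein export pathway, in the 2 comparisons at ZT6.

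Of the 41 matched open reading frames without a known function 29 were higher in WT at ZT1 and 39 at ZT6, with median LFCs of 1.35 and 2.88, and 22 in *cca1lhy* and 38 in *prr7prr9*. The largest LFC at ZT6 was that of AT2G07722, an uncharacterized protein, which stood at −1.68 and −0.87 log2 CPM in WT at 22 °C, where −1.68 is the lowest value of that table, at 2.80 and 4.26 at 37 °C, and at −1.46 and −1.06 at 10 °C (LFC 4.81 ± 0.49, limma adjusted p = 0.000155). In reads, AT2G07722 went from 4 to 311 over both libraries, a ratio of 104 after the same scaling. AT2G07677, a transcribed pseudogene, had LFCs of 3.14 ± 0.22 in WT at ZT1 and 4.31 ± 0.38 in *prr7prr9*, and AT2G07706, a protein without a known role, of 3.43 ± 0.20 and 3.83 ± 0.30 in WT. AT2G07749, whose product resembles the polymerase of viruses that replicate in mitochondria, had LFCs of 1.96 and 3.53 in WT. Of the 25 other matched pseudogenes 8 of 23 tested were higher at ZT1 and 20 of 25 at ZT6.

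The short and the unmatched genes gave few calls. Of the 24 genes under 100 bases, 12 were tested at ZT1 and 24 at ZT6, and 1 was called higher in WT at each time (1.11 for AT2G07754, a tRNA-Ser whose position overlaps AT2G07774, and 1.83 for AT2G07792, a tRNA-Tyr). A tRNA normally has no poly(A) tail, and few reads fell on these genes. The genes without a mitochondrial match gave 0 calls of 4 tested at ZT1 and of 8 at ZT6 in WT by limma. Since 6.97% and 7.25% of all genes were called higher at ZT1 and ZT6, these counts for short and unmatched genes lie near the background. They include AT2G07690 (MCM5, a subunit of the helicase that starts DNA replication), with WT levels at ZT1 of 3.78, 3.03, 3.46 and 3.83 log2 CPM at 22 °C and 3.09, 3.09, 2.83 and 3.14 at 37 °C (LFC −0.49 ± 0.26, adjusted p = 0.169), AT2G07680 (an ABC transporter, LFC −0.29) and AT2G07750 (an RNA helicase, LFC 0.00). Summed over the 4 WT libraries at 22 °C at ZT1, AT2G07690 held 17.2% of the reads on the 147 genes, with 47 of its 87 reads in replicate 1, whereas in *cca1lhy* AT2G07783 held the most (16.6%). Within the insertion, 3 matched genes are named for plastid proteins. AT2G07732, which resembles *rbcL*, the large subunit of Rubisco, had an LFC of 0.49 at ZT1 and of 0.46 ± 1.06 in the afternoon, neither called (adjusted p = 0.0969 and 0.841), with ZT6 values of 2.09 and 0.87 at 22 °C, 1.81 and 2.07 at 37 °C and 4.04 and 0.94 at 10 °C in WT. AT2G07739, which resembles the plastid gene *Ycf1*, was called higher in WT (3.07 and 3.18). AT2G07688, a pseudogene similar to the D1 protein of photosystem II, had an LFC of 0.64 ± 0.21 at ZT1 and 1.17 ± 0.87 at ZT6 and was not called (adjusted p = 0.0184 and 0.399).

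**Figure D4:**
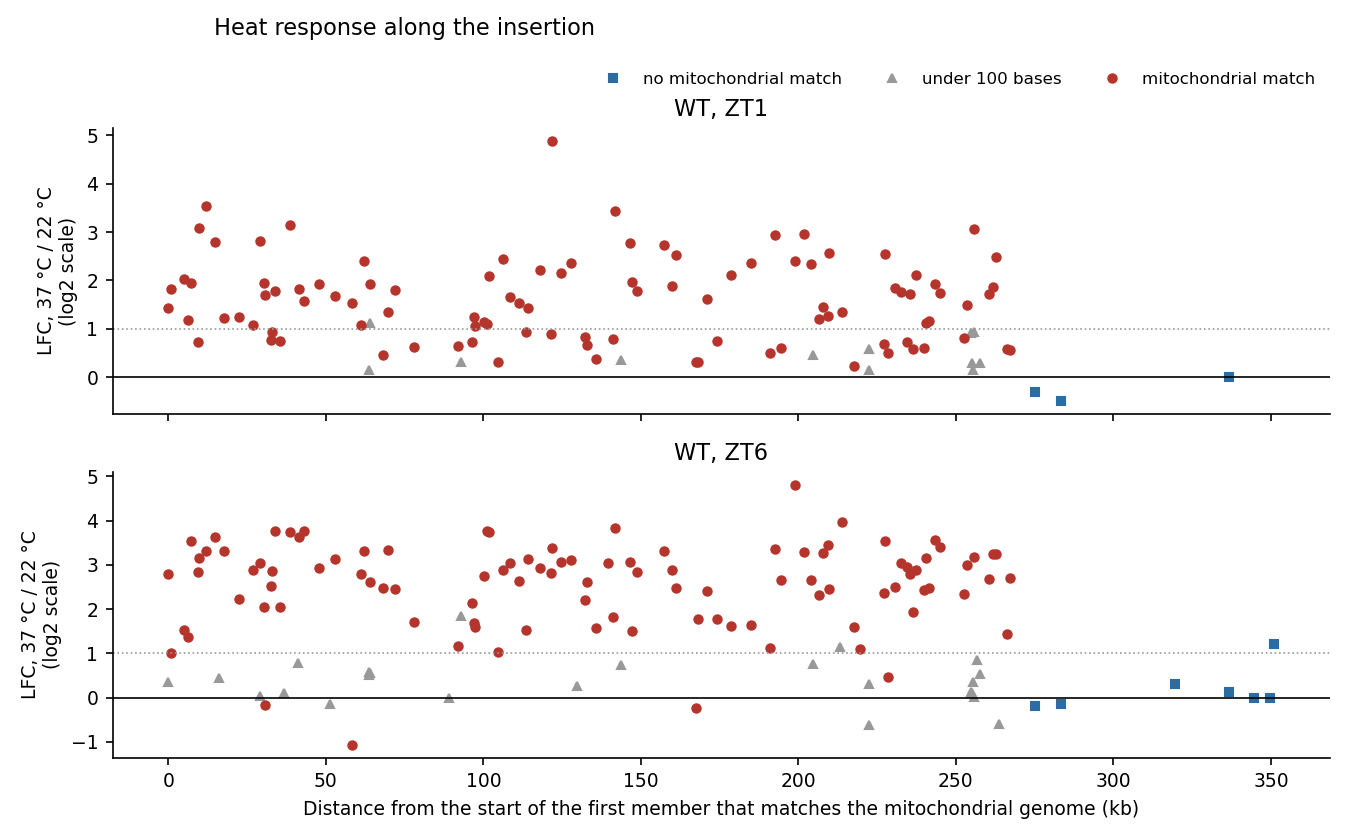
LFC at 37 °C against 22 °C (log2 scale) in WT of each tested gene against its distance (kb) from the first matched gene, with ZT1 and ZT6 in separate panels. Colours mark matched, short and unmatched genes, and the dotted line is an LFC of 1. One unmatched lncRNA lies too far away to be drawn. Matched genes are high over the whole 267.6 kb, with medians of 1.58 and 2.80, and the unmatched genes beyond it lie between −0.49 and 0.31 except AT2G07780, which lies above 1 at ZT6 but was not called.

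Genes with a full and with a partial match were both called. At ZT6 53 of the 59 genes with every window in the mitochondrial genome were higher in WT (median LFC 2.64), as were 21 of 24 with over 90% of windows (3.05) and 19 of 20 with fewer (2.83). At ZT1 the counts were 35 of 58 (1.26), 22 of 23 (1.82) and 15 of 20 (1.55). Where exons of 2 genes overlap, a read may count for neither or cannot be assigned, and 21 matched genes overlap another of the 147. Of these, 19 were higher at ZT1 and 21 at ZT6, against 53 of 80 tested and 72 of 82 among matched genes without such overlap. These subsets share reads, libraries and depth, and their differences were not tested.

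Whether the WT heat response depended on the time of day was tested as the difference of the LFCs, ZT6 minus ZT1. By limma's variances, 40 of 117 genes had a larger LFC at ZT6 and 1 a smaller one, where 9.44% of all genes tested differed at an adjusted p under 0.05 and 5.23% had a larger LFC. The leading genes were AT2G07692 (2.66) and AT2G07728 (2.62), both of unknown function. Among genes with a known role, the difference was 1.97 for AT2G07768 (*ccmFN2*), 2.17 for AT2G07726 (*rps14*), 1.82 for AT2G07725 (*rpl5*, of the large ribosomal subunit), 1.41 for AT2G07689 (*nad2*), 1.36 for AT2G07771 (*ccmC*, a haem carrier) and 1.29 for AT2G07734 (*rps4*). The gene with the smaller LFC at ZT6 was AT2G07783 (*ccmFN1*), at −2.61 ± 0.48 (adjusted p = 0.00115). For AT2G07698 (*atp1*) the difference was −1.50 ± 0.45 (adjusted p = 0.0517). The lowest value a gene could take was 1.23 log2 CPM at ZT1 and −1.68 at ZT6, which bounds the LFC of scarce genes at ZT1 more tightly. When reads were recovered and only 0.5 reads added, 2 genes had a larger and 3 a smaller LFC at ZT6, and the median difference over matched genes fell from 1.04 to 0.09. The larger LFCs at ZT6 therefore do not hold on that scale. The smaller LFC of AT2G07783 passed the threshold under every setting tried. For cold the difference (ZT6 minus ZT1) passed for 1 of the 117 genes, lower for AT2G07747 (−1.42 ± 0.39, adjusted p = 0.0184), where 10.9% of all genes differed and 5.13% were lower. This call was lost without WT 22 °C replicate 3 or WT 10 °C replicate 2 of ZT6. On recovered reads with 0.5 added the calls turned to 3 higher and 0 lower, where 9.23% of all genes differed. With 5 added they turned to 19 higher and 0 lower of the 117. There 18.6% of all genes differed and the median difference over all genes was 0.47, so the 19 are not read as particular to this set. The labels give 1 flowcell for all ZT1 libraries and another for all ZT6 libraries, so time of day and flowcell cannot be told apart.

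Few of the genes were called in moderate cold. At 10 °C against 22 °C, a comparison that shares its 22 °C libraries with that of heat, limma called 0 of 117 genes in WT at ZT1 (1.87% of all genes called, 0 of the 117 at an unadjusted p under 0.05) and 0 in *cca1lhy* (2.15%, 1 at an unadjusted p under 0.05). Of the 101 matched genes tested at ZT1, 52 in WT and 53 in *cca1lhy* passed the filter on their 10 °C and 22 °C libraries alone. The rest were above the lowest value in fewer than 3 of those libraries, so a fall in the cold could hardly show in them. At ZT6 limma called 1 lower in WT (5.94%, of which 2% lower, 5 at an unadjusted p under 0.05) and 0 in *prr7prr9* (3.6%, 4 at an unadjusted p under 0.05). The gene called was AT2G07747 (*matR*), with 1.69 and 2.36 log2 CPM at 22 °C and 1.00 and 0.51 at 10 °C in WT (LFC −1.27 ± 0.30, adjusted p = 0.0296). At 37 °C it stood at 3.49 and 3.62, so it was the 1 gene of the set called in opposite directions by heat and cold. The call was lost without WT 22 °C replicate 3 (adjusted p = 0.138) and without either 10 °C library (0.0503 and 0.141). The fold of the mean share of reads at 10 °C was 0.958 in WT and 0.783 in *cca1lhy* at ZT1, with overlap, and the *prr7prr9* shares overlapped as well. In WT at ZT6 it was 0.794 without overlap, and 1.03 over the matched genes without AT2G07783 and AT2G07675, so the lower share rested on those 2 genes.

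The *cca1lhy* mutant held fewer of these reads after heat than WT. Its mean share at 37 °C was 0.711 of that of WT, without overlap, against 1.00 at 22 °C and 0.817 at 10 °C. The LFC of *cca1lhy* against WT at 37 °C was negative for most genes, being positive in 14 of 117, with a median of −0.35. By limma 2 genes were called lower (2.13% of all genes called, 0.824% lower), and 50 had an unadjusted p under 0.05. At an adjusted p under 0.05 without the limit on the LFC there were 15, where 6.4% of all genes passed. AT2G07667, an uncharacterized protein, was at 3.86, 3.43, 3.33 and 3.64 log2 CPM in WT and at 3.24, 1.86, 2.15 and 2.29 in *cca1lhy*, all of them lower (LFC −1.18 ± 0.21, adjusted p = 0.00107). AT2G07736, a pseudogene, was at 2.15, 2.80, 1.94 and 2.60 in WT and at 1.23, 1.23, 1.23 and 1.73 in *cca1lhy* (−1.02 ± 0.14, adjusted p = 4.13e-05), from 2, 5, 1 and 3 reads against 0, 0, 0 and 1. On recovered reads with 5 added neither call remained (adjusted p = 0.303 for AT2G07667 and 0.836 for AT2G07736), and with 0.5 added that of AT2G07667 was lost (adjusted p = 0.0901). The LFC of AT2G07736 was also smaller than 1 in size without WT 37 °C replicate 2 (−0.88) or 4 (−0.95) or without *cca1lhy* 37 °C replicate 1, 2 or 3 (−0.98 each). No gene was called between *cca1lhy* and WT at 22 °C (1.72%, 1 at an unadjusted p under 0.05) or at 10 °C (1.57%, 0). On the libraries compared alone, 46 matched genes passed the filter at 22 °C and 58 at 10 °C, against 100 at 37 °C. Fewer genes could thus show a difference at 22 °C and 10 °C. The leaf marker sum in *cca1lhy* was 60967 to 69923 CPM at 22 °C and 34515 to 42166 at 37 °C, and its part in the difference was not tested.

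The difference between the heat responses of *cca1lhy* and WT, the interaction of genotype and temperature, passed the threshold for 3 genes, all with a smaller response in *cca1lhy* (0.913% of all genes tested, 0.529% smaller, 28 of the 117 at an unadjusted p under 0.05). They were AT2G07736 (−0.99 ± 0.20, limma adjusted p = 0.0131), AT2G07741 (*atp6*, −0.86 ± 0.21, adjusted p = 0.0418) and AT2G07691, an uncharacterized protein (−0.98 ± 0.24, adjusted p = 0.0427). AT2G07691 stood at 2.81, 2.80, 1.94 and 1.91 log2 CPM in WT at 37 °C and at 1.23, 1.86, 1.23 and 1.23 in *cca1lhy*. These values came from 5, 5, 1 and 1 reads against 0, 1, 0 and 0. AT2G07691 had no reads at 22 °C or 10 °C in either genotype, so it passed the filter only through its 37 °C libraries. AT2G07741 rested on 13, 16, 11 and 12 reads in WT and on 5, 5, 4 and 10 in *cca1lhy* at 37 °C. On recovered reads with 0.5 added, 0 genes passed, and leaving out single libraries gave 1 to 4. It dropped to 1 without WT 22 °C replicate 1 or 2, *cca1lhy* 22 °C replicate 2, 3 or 4, or *cca1lhy* 37 °C replicate 3. The interaction with 10 °C gave 0 genes (0.0117%, 0 at an unadjusted p under 0.05).

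In *prr7prr9* against WT, limma called 0 of 135 genes at 22 °C (0.286% of all genes, 2 at an unadjusted p under 0.05), 0 at 37 °C (0.145%, 5) and 0 at 10 °C (0.141%, 14). The mean share of reads was 1.01 of that of WT at 22 °C and 1.41 at 10 °C. At 37 °C and 10 °C the *prr7prr9* libraries lay above those of WT without overlap. With 2 libraries in each group, such a separation can easily arise without a difference. In addition, 1 library of each of these *prr7prr9* groups is among those named above for more genes above the lowest value. At 10 °C the LFC was positive for 109 of 135 genes, with a median of 0.24. The interactions gave 0 genes for 37 °C (0.00321%, 1) and 0 for 10 °C (0.0835%, 3).

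Nuclear genes of the same complexes were called higher about as rarely as all genes, of which 6.97% were at ZT1 and 7.25% at ZT6. Of nuclear genes for complex I, complex IV and the ATP synthase, 0 of 13, 0 of 6 and 0 of 9 were called higher by limma at 37 °C in WT at either time, with median LFCs at ZT1 of 0.11, 0.17 and −0.03 (2, 1 and 5 genes at an unadjusted p under 0.05). At ZT6 AT3G15640 of complex IV fell by 1.34 on the log2 scale (adjusted p = 0.00276). Of 9 genes of complex III and cytochrome c, only CYTC-2 (AT4G10040), a cytochrome c, was higher, with LFCs of 2.19 ± 0.21 at ZT1 and 2.89 ± 0.23 at ZT6 (adjusted p = 1.41e-08 and 4.27e-05). Of 6 genes for mitochondrial transcription and RNA decay 0 were called in WT at 37 °C (3 at an unadjusted p under 0.05 at each time), while SCA3 (AT2G24120), a phage-type RNA polymerase of the plastid, was higher in *cca1lhy* (1.90) and *prr7prr9* (1.14). Of 11 genes of the mitochondrial stress response 6 were higher and 1 lower at both times in WT. They include HSP23.6-MITO (AT4G25200), a small heat shock protein of the mitochondrion, with LFCs of 10.04 and 10.20, AT5G51440, another small heat shock protein gene, with 8.67 and 7.52, NAC13 (AT1G32870), a regulator of retrograde signalling, with 2.43 and 4.35, and AOX1A (AT3G22370), the alternative oxidase, with 2.35 at ZT1.

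**Figure D5:**
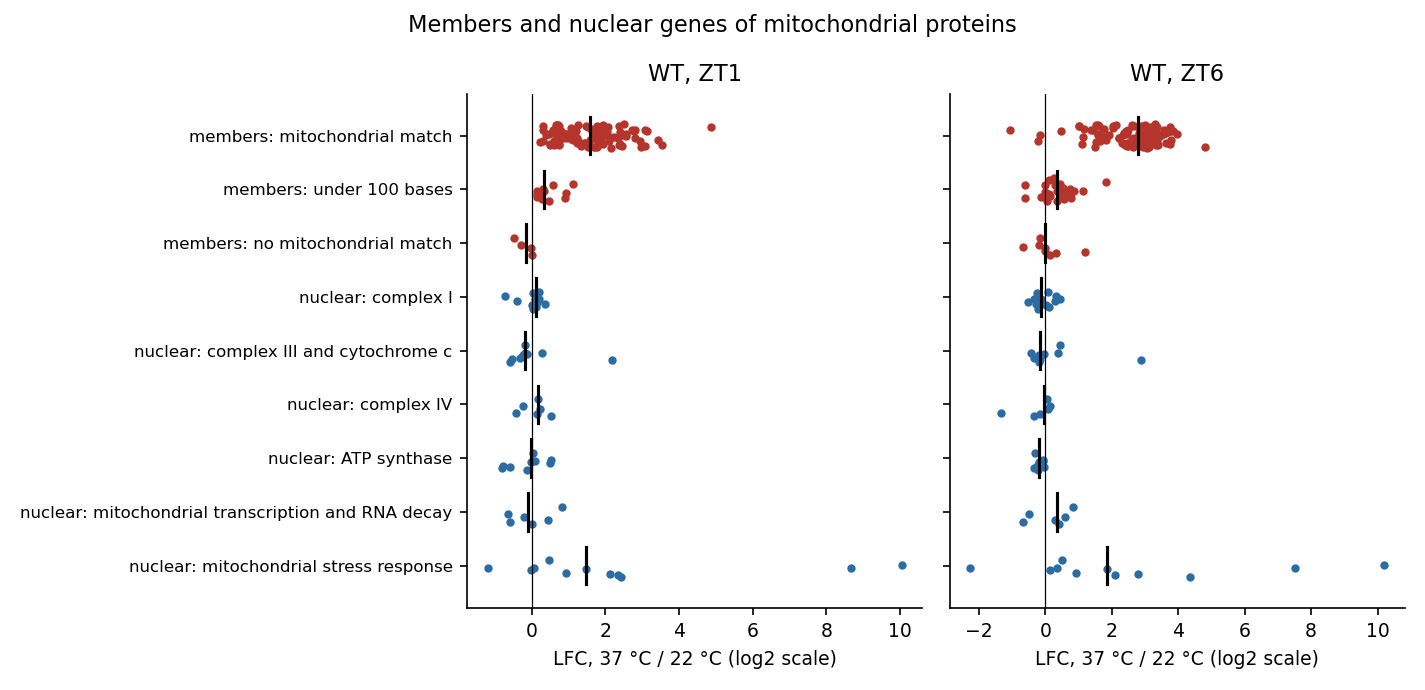
LFC at 37 °C against 22 °C in WT (log2 scale) for the genes of the set by class (mitochondrial match, under 100 bases, no match) and for nuclear genes of the same complexes, of mitochondrial RNA metabolism and of the mitochondrial stress response, at ZT1 and ZT6. Points are genes and bars are medians. The matched genes have medians of 1.58 and 2.80, and the nuclear ATP synthase genes have medians of −0.03 and −0.19.

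For likeness over libraries, the median profile of the genes of the set above the lowest value in every library was correlated (Pearson r) with every other gene. At ZT1 this profile rested on 9 genes and 23 libraries, and the closest genes outside the set were AT2G05365 (0.980), AT1G02700 (0.979), AT2G07629 (0.978), AT5G03330 (0.974) and AT4G02815 (0.973), of which AT2G05365 and AT2G07629 themselves match the mitochondrial genome. At ZT6, over 82 genes and 12 libraries, they were AT5G58110 (0.996), AT3G07090 (0.995), AT3G07770 (Hsp89.1, a mitochondrial HSP90, 0.995), AT3G53230 (AtCDC48B, an AAA-type ATPase, 0.995) and AT5G53400 (BOB1, a small heat shock-like protein, 0.994). All of these points share the contrast of 37 °C with the other temperatures, so the values describe that contrast.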

How the data were processed

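mRNA of whole seedlings was read as single 75-base ends. Per the study's methods and processing notes, adapters were cut with cutadapt, TopHat2 (version 2.0.14, running Bowtie2 version 2.2.5) aligned reads to TAIR10, and union-mode exon counts per Araport11 gene were formed. The authors then added 5 reads to each count, scaled libraries with edgeR and applied voom with quantile normalization. The deposited values are log2 CPM, and the authors normalized each time on its own. Their own fold changes and p-values were not used. The files hold no counts, so the planned count test did not apply.

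All 6 groups of a time were fitted with limma (3.58.1, R 4.3.3) with a trend, and p-values were adjusted over all genes tested (Benjamini-Hochberg). P-values measure the spread between these libraries, which at ZT6 are not said to be separate cultures. The ZT6 table and the labels number replicates differently, so the table's numbers serve as names. Reads per gene were worked back from the discrete steps, assuming an offset of 5.5 reads, and counting intervals and floors (3 reads) cover counting error only. Replicates differed beyond sampling noise. Sequences were compared with blastn (2.17.0, identity at least 95%, alignments of at least 100 bases). The code was tested on simulated data.

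Genes were named if they match a known mitochondrial gene, if they were among the 5 called genes with the largest LFC of a comparison or the 3 highest in level, if called in opposite directions, or as called genes of the nuclear lists (up to 4) and the 5 most alike in profile. Others (AT2G07773, AT2G07749, AT2G07732, AT2G07739, AT2G07688, the short and the unmatched genes) were chosen after their values were seen. Members and lists were chosen with earlier results of these data known. Alternatives were other filters, no trend, only the groups compared, a replicate block, recovered reads with 0.5 or 5 reads added, and leaving out libraries.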

Additional observations from a re-analysis of the deposited data

Results flagged for a closer look

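In 7 of 50 groups of 4 libraries looked at, 1 library stood apart from the rest by Dixon's ratio of gap to range. Chance gives about 1 in 20 only for values without ties. Several of the 7 had 3 libraries tied at the lowest value, where any other value fixes the ratio at 1. The 7 are therefore not set against that rate. The share of reads in *cca1lhy* at 22 °C at ZT1 gave 0.901. AT2G07741 in WT at 22 °C gave 1, as 3 libraries were at the lowest value, and AT2G07736 in WT at 22 °C and in *cca1lhy* at 37 °C and AT2G07691 in *cca1lhy* at 37 °C gave 1 for the same reason. AT2G07783 in *cca1lhy* at 37 °C gave 0.880 and AT2G07732 in WT at 37 °C 0.836.

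At an adjusted p under 0.05 by limma, the heat response differed between *cca1lhy* and WT at ZT1 for AT2G07691 (interaction −0.98), AT2G07736 (−0.99) and AT2G07741 (−0.86). These calls rested on few reads, and AT2G07691 passed the filter only through its 37 °C libraries. On recovered reads with 0.5 or 5 added, 0 genes of the set passed. Between the times in WT (ZT6 minus ZT1) the heat response differed for AT2G07689 (1.41), AT2G07725 (1.82), AT2G07726 (2.17), AT2G07734 (1.29), AT2G07768 (1.97), AT2G07771 (1.36) and AT2G07783 (−2.61), and the cold response for AT2G07747 (−1.42), with adjusted p under 0.05 by limma's variances. With 0.5 reads added, the median heat difference over matched genes fell from 1.04 to 0.09, so the larger LFCs at ZT6 do not hold on that scale. AT2G07768 passed the ZT1 filter through its 37 °C libraries alone. The cold call was lost without single libraries, and time of day and flowcell cannot be told apart.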

How the results depend on the processing

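The calls for heat kept their direction in every setting tried, but their number at ZT1 depended on the offset. In WT and *cca1lhy* at ZT1 and WT and *prr7prr9* at ZT6, 72, 55, 93 and 91 matched genes were higher. On recovered reads with 0.5 added these counts were 86, 78, 94 and 91, where 27.3, 26.7, 19.4 and 18.9% of all genes were called in either direction. With 5 added they were 54, 49, 97 and 97, where 13.3, 12.6, 18.3 and 26.9% of all genes were called. Leaving out 1 library gave 71 to 74 genes in WT at ZT1, 54 to 59 in *cca1lhy*, 87 to 97 in WT at ZT6 and 84 to 96 in *prr7prr9*, and folds of the share of 12.6 to 13.8, 9.18 to 10.0, 3.41 to 3.91 and 3.10 to 5.56. It gave 1 to 3 for *cca1lhy* against WT at 37 °C (1 without *cca1lhy* 37 °C replicate 3), 1 to 4 for the *cca1lhy* interaction, 0 to 2 for cold in WT at ZT6, 0 to 1 for *prr7prr9* against WT at 37 °C, and 17 to 44 (heat) and 0 to 2 (cold) for the difference between times. The lowest heat counts came without WT 37 °C replicate 3 (17), WT 22 °C replicate 2 (19) and replicate 3 (25) of ZT6. On recovered reads with 0.5 added, where the median LFC of all genes shifted by −0.35 (WT at ZT1), cold in WT at ZT1 gave 1, *cca1lhy* against WT at 22 °C 1, the interaction 0 and the time differences 5 (heat, 2 higher) and 3 (cold, all higher), and the time difference of AT2G07749 became −0.051. With 5 added, cold gave 6 in WT and 1 in *cca1lhy* at ZT1 (4.1 and 3.15% of all genes) and 0 in WT at ZT6. In that setting *cca1lhy* against WT at 37 °C and the interaction gave 0, and the time differences 23 (21 higher) and 19 (all higher). Of all genes, 7.92% (heat) and 9.23% (cold) differed between the times with 0.5 added, and 9.06% and 18.6% with 5 added. An adjusted p alone gave 15 for *cca1lhy* against WT at 37 °C. Without the 4 ZT6 libraries named above (a choice made after seeing the data), the counts were 63 for heat in WT (61 of 103 matched genes, against 93), 0 for cold in WT, 0 for heat in *prr7prr9* (median LFC of matched genes 2.91, with single-library groups assumed to vary like the others), and 0 for the time difference in cold, and the share fold of *prr7prr9* at 10 °C was 1.64. Only the groups compared gave 0 for cold in WT at ZT6, and no trend and no filter gave 2 each for the time difference in cold. Over matched genes without AT2G07783 and AT2G07675 (also chosen after seeing the data), the share folds for heat were 20.7, 15.0, 7.29 and 6.87, and that for cold in WT at ZT6 turned to 1.03. The replicate numbers did not pair the samples (r of −0.33 to 0.29 at ZT1 and −0.40 to 0.30 at ZT6), and a replicate block gave 72, 55, 92 and 90 matched genes higher. Other causes were not tested. Depth limits the ZT1 values, where most matched genes had few reads at 22 °C.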

Other observations

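Other nuclear copies of mitochondrial sequence were looked for after the data were seen. Of 37604 genes outside the set, 57 were covered to at least 90% by the mitochondrial genome. Of these, 54 lie inside the same 267.6 kb, and 30 of 49 tested were higher at 37 °C in WT at ZT1 (median LFC 1.39) and 43 of 54 at ZT6 (2.15), with 43 in *prr7prr9*. They include AT2G05365, a lncRNA, with LFCs of 3.06 and 4.95 in WT, and AT2G07629 with 3.34 and 3.41. Of the 3 elsewhere, AT1G65347, a pseudogene on chromosome 1, had LFCs of 1.19 and 2.58, its neighbour AT1G65346 0.86 (not past the threshold) and 2.13, and AT2G18323 0.07 at ZT6. Of 4 genes covered by the plastid genome, 1 of 2 tested was higher at ZT1, and at ZT6 0 were higher and 1 was lower.

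Of the 100 genes next to the set in identifier order, 31 match the mitochondrial genome, of which 12 of 27 tested were higher in WT at ZT1 and 22 of 31 at ZT6. Of the 69 without a match, 2 of 20 and 4 of 37 were higher. These counts are descriptions, and the groups were not compared by a test.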
